A study of Mus musculus with 6 samples.

Results

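The Wnt ligands described here are 10 genes, Wnt2, Wnt2b, Wnt4, Wnt5a, Wnt5b, Wnt6, Wnt9a, Wnt10a, Wnt11 and Wnt16, chosen by symbol from the 31815 gene rows of a count table of sorted mouse kidney cells. The table holds 19 Wnt ligand rows in all. Messenger RNA came from the cortex and outer medulla of male mice aged 9 to 12 weeks, on day 6 after bilateral ischemia reperfusion injury, in which the blood supply of the kidneys is stopped and restored. All animals had the genotype Axin2CreERT2/+:R26RtdT/+:Acta2-GFP and received tamoxifen on days 2 and 4, so both groups carry the same alleles, injury and drug. The first group, tdT+GFP+, holds 3 libraries of cells with the red label, which tamoxifen fixes in cells that use Axin2 at that time, since the inducible Cre sits at the Axin2 locus. The second group, tdT-GFP+, holds 3 libraries of cells with the green Acta2 reporter and no red label. The labels name the same kidney, 1, 2 or 3, for the libraries of both sorts with that number. The Acta2 reporter is active in vascular smooth muscle as well as in myofibroblasts, and the red label records past Axin2 use and not its state at the sort.

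Wnt ligands are secreted, lipid-modified glycoproteins that bind Frizzled receptors on nearby cells. In the canonical branch they stabilise beta-catenin, which works with TCF/LEF factors to switch on targets such as Axin2, while other ligands act through Ror and Ryk receptors without beta-catenin. In the kidney, Wnt signals from the ureteric bud and stroma drive nephron formation, and the pathway is known to be active again in fibrosis.

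Total counts ran from 25697348 to 33029933 per library, so that 3 counts, the floor used here, correspond to 0.0915 to 0.114 CPM, the count scaled to a common library size. Summed CPM of 8 stromal and myofibroblast markers ran from 42800 to 47700 in tdT+GFP+ and from 33000 to 48900 in tdT-GFP+ libraries, and none of them was at 0. The 10 endothelial markers summed to 538 to 884 CPM in tdT+GFP+ and 1200 to 2070 CPM in tdT-GFP+ libraries, and all 10 had negative log2 fold changes. The 8 macrophage markers summed to 380 to 1390 CPM in tdT+GFP+ and 274 to 838 CPM in tdT-GFP+ libraries. Loop of Henle and distal tubule markers summed to 113 to 532 CPM in tdT+GFP+ and 439 to 955 CPM in tdT-GFP+ libraries. Both sorts thus held RNA with markers of cells other than stroma. The sorted reporter gene Acta2 had 1580, 1420 and 1750 CPM in tdT+GFP+ libraries and 1590, 944 and 943 CPM in tdT-GFP+ libraries. In bulk RNA, fewer cells of a type and less RNA per cell cannot be told apart.

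All 10 ligands were detected in all 6 libraries, and Wnt4 was the most abundant in each of them. Levels between genes are compared as CPM per kilobase of exon. On that scale Wnt4 averaged 61.1 ± 17.2 in tdT+GFP+ and 55.0 ± 18.2 in tdT-GFP+ cells (SD, n = 3 each). It made up 56.4% ± 5.84 of the summed level of the 10 ligands in tdT+GFP+ and 59.0% ± 5.26 in tdT-GFP+ cells. Wnt5a followed at 16.1 ± 2.80 and 13.9 ± 3.38 CPM per kilobase in tdT+GFP+ and tdT-GFP+ cells. Wnt2 had 13.3 ± 0.798 and 9.82 ± 4.96, Wnt11 had 7.14 ± 0.821 and 5.56 ± 2.00, and Wnt9a had 4.0 ± 0.518 and 2.48 ± 1.32, in the same order of groups. The remaining 5 ligands, Wnt5b, Wnt6, Wnt2b, Wnt10a and Wnt16, each averaged under the level of Wnt9a, and Wnt16 was last at 0.0982 ± 0.0431 in tdT+GFP+ and 0.630 ± 0.497 in tdT-GFP+ cells.

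With the union of exons as the length, the order held in every library for some neighbours and not for others. The level of Wnt4 was 3.31 to 4.46 times that of Wnt5a, and their ranges did not overlap. Wnt2 was above Wnt11, Wnt11 above Wnt9a and Wnt6 above Wnt2b in 6 of 6 libraries, with ratios of 1.48 to 1.99, 1.74 to 3.35 and 1.08 to 2.89. Wnt5a and Wnt2 could not be ordered on this scale, since Wnt5a was above Wnt2 in 4 of 6 libraries and the ratio ran from 0.915 to 2.32. With the longest transcript as the length, the means were further apart, at 16.7 for Wnt5a and 11.6 for Wnt2. The pairs of Wnt9a with Wnt5b, Wnt5b with Wnt6, Wnt2b with Wnt10a and Wnt10a with Wnt16 each kept their order in 5 of 6 libraries.

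**Figure D1:**
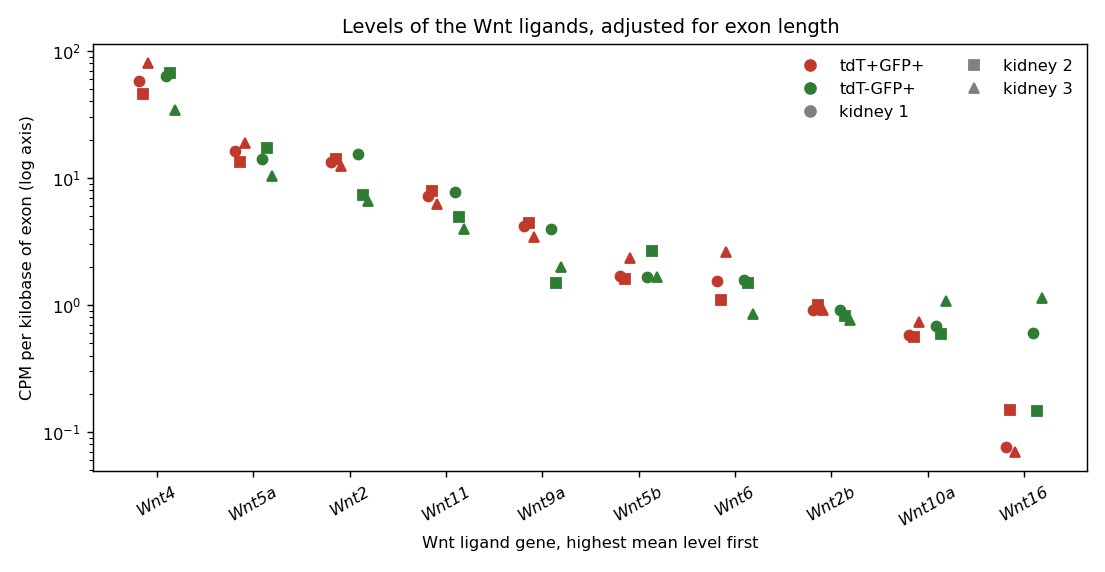
Level of each Wnt ligand in CPM per kilobase of exon (log axis) in the 6 libraries, with tdT+GFP+ in red left of tdT-GFP+ in green and a marker shape per kidney. Wnt4 stands alone at the top, at 34.2 to 79.7, and Wnt16 spreads the most, at 0.0698 to 1.14.

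None of the 10 ligands passed the test between the groups. In the edgeR quasi-likelihood test over 15462 genes, 0 of the 10 had an adjusted p under 0.05 against 0% of all tested genes, and the smallest adjusted p among them was 0.414, for Wnt16. At an unadjusted p under 0.05 there was 1 ligand, Wnt16, against 10.7% of all genes, and it was lower, as were 6.97% of all genes at that p. DESeq2 called 1 ligand, again Wnt16, against 1.69% of genes, and limma-voom called 0 against 0%. The DESeq2 call was in the lower direction, against 1.6% of genes called lower and 0.097% called higher. With the kidney as a block DESeq2 called 0 ligands, against 1.86% of genes, of which 1.59% were lower and 0.269% higher. The log2 fold changes were positive for 7 ligands and negative for 3, with a median of 0.20, while 49.9% of all tested genes were positive and their median was -0.00039. In 0 of 10 ligands did the CPM values of the groups fail to overlap, against 15.8% of all genes, 7.23% higher and 8.6% lower. Wnt2b and Wnt9a were higher in tdT+GFP+ cells in all 3 kidneys, against 15.4% of all genes, and Wnt10a was lower in all 3, against 17.1%. In kidney 1 the log2 differences were only 0.01 for Wnt2b and 0.07 for Wnt9a, and in kidney 2 that of Wnt10a was -0.07. All 10 passed the filter on low counts. Wnt16 passed it through the tdT-GFP+ libraries, since only 1 tdT+GFP+ library was past the minimum, so its place among the tested genes is not independent of the direction of its difference.

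**Figure D2:**
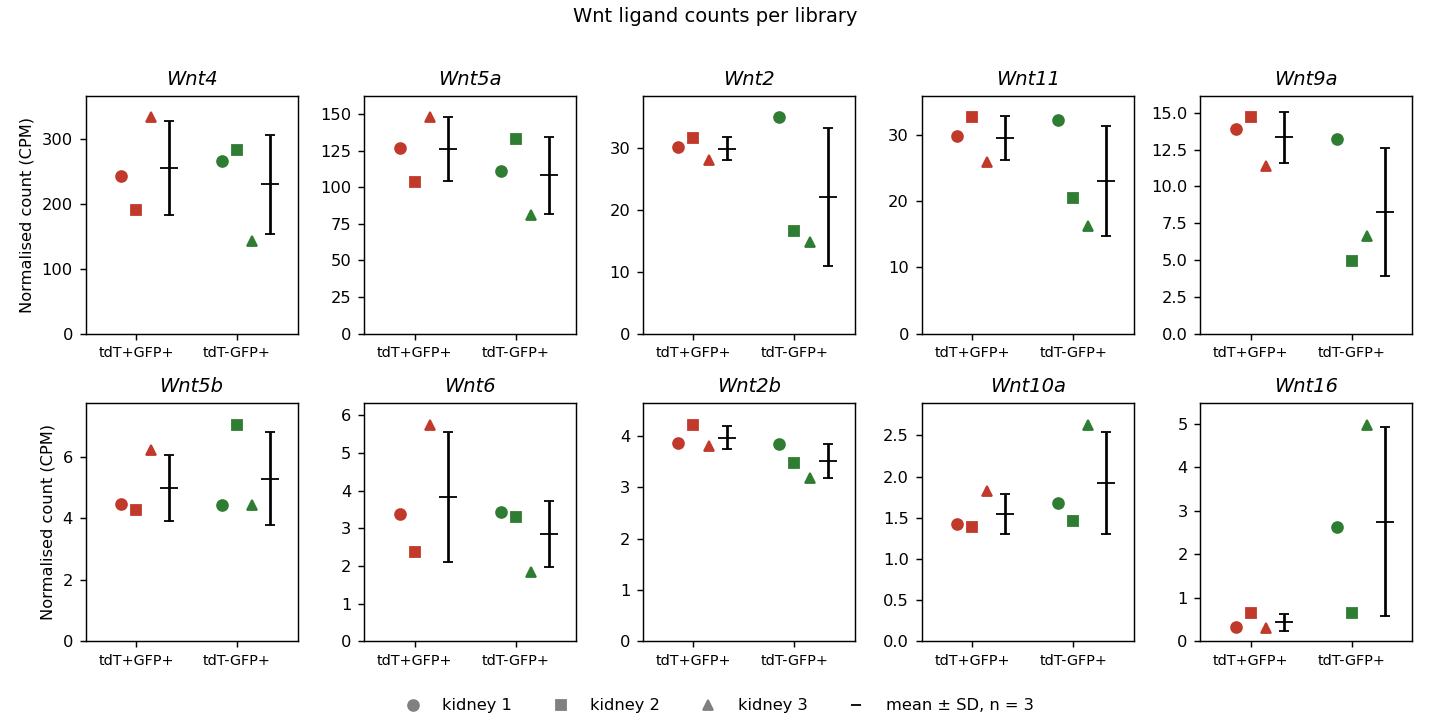
Normalised count (CPM) of each ligand per library, with kidneys as marker shapes and the mean ± SD of 3 libraries in black, tdT+GFP+ left of tdT-GFP+. The groups overlapped for all 10 ligands, and for Wnt2, Wnt9a and Wnt11 the tdT-GFP+ library of kidney 1 lay with the tdT+GFP+ libraries.

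Among the ligands best known from kidney and stroma, Wnt4 (ENSMUSG00000036856.4, GRCm38 chromosome 4, 137277489 to 137299726, plus strand) starts nephron formation in the embryo and has been described in medullary myofibroblasts. It had 243, 191 and 334 CPM in tdT+GFP+ libraries 1, 2 and 3, and 266, 283 and 143 CPM in tdT-GFP+ libraries 1, 2 and 3. The highest library was tdT+GFP+ 3 and the lowest tdT-GFP+ 3, with the other 4 in between. The log2 fold change was 0.15 (SE 0.31, 95% interval from -0.58 to 0.88, adjusted p = 0.855, edgeR). By kidney the log2 differences were -0.13, -0.56 and 1.22, so only kidney 3 as labelled was positive. Across genes, deviations from the group means went together between kidneys 2 and 3 as labelled (0.448 and 0.444) and not within kidney 2 or 3 (-0.578 and -0.304), so the differences within a kidney rest on the labels alone. The log2 fold change was -0.10 without tdT-GFP+ replicate 3, -0.08 without tdT+GFP+ replicate 3 and -0.34 without both libraries of that kidney.

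Wnt5a (ENSMUSG00000021994.15, chromosome 14, 28504750 to 28527448, plus strand) is the main ligand of the beta-catenin-independent branch and binds Ror2. It had 127, 104 and 148 CPM in tdT+GFP+ libraries and 111, 133 and 80.8 CPM in tdT-GFP+ libraries. As for Wnt4, tdT+GFP+ 3 and tdT-GFP+ 2 were the highest and tdT-GFP+ 3 and tdT+GFP+ 2 the lowest. The log2 fold change was 0.22 (SE 0.21, 95% interval from -0.28 to 0.72, adjusted p = 0.671), and -0.08 without both libraries of kidney 3. An antisense gene, Gm2670, shares exon sequence with Wnt5a on the opposite strand, and it had 17 to 34 counts per library against 2180 to 4161 for Wnt5a. Its paralog Wnt5b (ENSMUSG00000030170.14, chromosome 6, 119432531 to 119544347, minus strand) had 4.45, 4.25 and 6.20 CPM in tdT+GFP+ and 4.41, 7.03 and 4.41 CPM in tdT-GFP+ libraries. Its log2 fold change was -0.09 (SE 0.26, adjusted p = 0.902), and it was 0.16 without tdT-GFP+ replicate 2, the highest library.

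Wnt6 and Wnt10a are neighbours on chromosome 1, both on the plus strand and 6193 bases apart, and their libraries ranked differently. Wnt6 (ENSMUSG00000033227.7, 74771892 to 74785322), a ligand of the ureteric bud in the developing kidney, had 3.39, 2.38 and 5.75 CPM in tdT+GFP+ and 3.42, 3.29 and 1.85 CPM in tdT-GFP+ libraries. Its high library, tdT+GFP+ 3, and its low one, tdT-GFP+ 3, were those of Wnt4. The log2 fold change was 0.42 (SE 0.39, adjusted p = 0.665), 0.02 without tdT+GFP+ replicate 3 and -0.22 without both libraries of kidney 3. Wnt10a (ENSMUSG00000026167.14, 74791516 to 74804179), known from teeth, hair and skin, had 1.43, 1.39 and 1.83 CPM in tdT+GFP+ and 1.68, 1.46 and 2.63 CPM in tdT-GFP+ libraries. It was highest in tdT-GFP+ 3, where Wnt6 was lowest. Its log2 fold change was -0.31 (SE 0.31, adjusted p = 0.679), and -0.02 without that library.

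In another pattern, tdT-GFP+ 2 and tdT-GFP+ 3 were the lowest libraries, as for 4 of the 10 ligands, Wnt2, Wnt11, Wnt9a and Wnt2b. The order of the other libraries differed between them. Wnt2 (ENSMUSG00000010797.6, chromosome 6, 17988940 to 18030585, minus strand), a canonical ligand of lung and vascular development, had 30.2, 31.6 and 28 CPM in tdT+GFP+ and 35.0, 16.6 and 14.8 CPM in tdT-GFP+ libraries. The 3 tdT+GFP+ libraries lay close together, and tdT-GFP+ 1 was above all of them. The log2 fold change was 0.43 (SE 0.32, 95% interval from -0.34 to 1.21, adjusted p = 0.598). Wnt11 (ENSMUSG00000015957.12, chromosome 7, 98835112 to 98855195, plus strand), a ligand of the ureteric bud tips, had 29.9, 32.7 and 26 CPM in tdT+GFP+ and 32.3, 20.5 and 16.3 CPM in tdT-GFP+ libraries. Its log2 fold change was 0.36 (SE 0.25, 95% interval from -0.24 to 0.96, adjusted p = 0.583). Wnt9a (ENSMUSG00000000126.11, chromosome 11, 59306928 to 59333552, plus strand), known from joint formation, had 13.9, 14.7 and 11.4 CPM in tdT+GFP+ and 13.2, 4.93 and 6.64 CPM in tdT-GFP+ libraries. It had the largest positive log2 fold change of the 10 ligands, 0.68 (SE 0.36, 95% interval from -0.17 to 1.54, adjusted p = 0.501).

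The size of the differences of Wnt2, Wnt11 and Wnt9a depended on which tdT-GFP+ library was in the test. Without tdT-GFP+ replicate 2 the log2 fold changes were 0.26, 0.27 and 0.41 for Wnt2, Wnt11 and Wnt9a, and without tdT-GFP+ replicate 3 they were 0.22, 0.16 and 0.55. Without tdT-GFP+ replicate 1 they were 0.95 for Wnt2, 0.70 for Wnt11 and 1.22 for Wnt9a, with adjusted p = 0.126, 0.142 and 0.133 in edgeR. DESeq2 without tdT-GFP+ replicate 1 called all 3 higher (adjusted p = 1.5e-09, 0.00785 and 6.2e-05), where 8.95% of all genes were called, 4.76% higher and 4.19% lower, and with all 6 libraries it called none of the 3. That choice of library was made after the values were seen. Within kidneys 1, 2 and 3 the log2 differences were -0.21, 0.93 and 0.92 for Wnt2, -0.11, 0.67 and 0.67 for Wnt11, and 0.07, 1.56 and 0.77 for Wnt9a. Stromal markers summed to 48900 CPM in tdT-GFP+ 1, against 39400 and 33000 CPM in tdT-GFP+ 2 and 3. Most of the sum in tdT-GFP+ 1 was Col1a1 (21500 CPM) and Col3a1 (21600 CPM). Of the 8 stromal markers only Pdgfra was higher in tdT-GFP+ 2 (1240 CPM) than in tdT-GFP+ 1 (1100 CPM). Proximal tubule markers summed to 520, 575 and 595 CPM in tdT+GFP+ and to 326, 1250 and 832 CPM in tdT-GFP+ libraries. In tdT-GFP+ 2 most of that sum was Aqp1, with 1070 CPM against 92.8 CPM in tdT-GFP+ 1, and the other 6 markers were each lower in tdT-GFP+ 2 than in tdT-GFP+ 1. The part of these cells in the differences was not tested.

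Wnt2b (ENSMUSG00000027840.5, chromosome 3, 104945272 to 104961921, minus strand), a paralog of Wnt2, varied the least of the 10. It had 3.87, 4.22 and 3.81 CPM in tdT+GFP+ and 3.85, 3.48 and 3.19 CPM in tdT-GFP+ libraries, a spread of 1.32-fold from the lowest to the highest, with tdT-GFP+ 2 and 3 the lowest as for Wnt2. Its log2 fold change was 0.18 (SE 0.17, 95% interval from -0.23 to 0.58, adjusted p = 0.670). The interval of the fold, 0.854 to 1.50, does not reach a doubling or a halving.

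Wnt16 (ENSMUSG00000029671.15, chromosome 6, 22288227 to 22298522, plus strand), known as a ligand of bone and joint tissue, had the largest log2 fold change. Its mean over the 6 libraries was the lowest, at 1.59 CPM. In tdT-GFP+ cells alone its mean of 2.75 CPM was above that of Wnt10a, 1.92 CPM. It had 11, 20 and 8 counts in tdT+GFP+ libraries and 80, 17 and 134 counts in tdT-GFP+ libraries. These are 0.336, 0.645 and 0.304 CPM in tdT+GFP+ and 2.63, 0.635 and 4.97 CPM in tdT-GFP+ cells. Only tdT-GFP+ 1 and 3 were high, and tdT-GFP+ 2 lay within the range of the tdT+GFP+ libraries. The log2 fold change was -2.67 (SE 0.77, adjusted p = 0.414, edgeR), a level 0.157 times that of tdT-GFP+ cells with an unadjusted 95% interval of 0.0438 to 0.561. Within kidneys 1, 2 and 3 the log2 differences were -2.74, 0.02 and -3.75. DESeq2 called Wnt16 lower (adjusted p = 0.0352), and the call was lost with the kidney as a block (log2 fold change -2.40, adjusted p = 0.187). It was also lost without tdT+GFP+ replicate 1 or 3 (adjusted p = 0.476 and 0.0787) and without tdT-GFP+ replicate 1 (0.0599), and DESeq2 gave no adjusted p without tdT-GFP+ replicate 3. In edgeR the log2 fold change was -1.93 without that library.

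Summed markers of vessels, and also those of podocytes, were highest in the libraries where Wnt16 was high. Endothelial markers summed to 538, 884 and 704 CPM in tdT+GFP+ libraries and 1560, 1200 and 2070 CPM in tdT-GFP+ libraries. The 8 pericyte and vascular smooth muscle markers summed to 1060, 1250 and 1230 CPM in tdT+GFP+ and 1750, 1250 and 2050 CPM in tdT-GFP+ libraries, so that tdT-GFP+ 2 was again within the tdT+GFP+ range for the second list. Single markers differed, since Esam and Ptprb were higher in tdT-GFP+ 2 (96.2 and 242 CPM) than in tdT-GFP+ 1 (67.6 and 227 CPM), unlike the other endothelial markers. Des, the only positive one in the second list, was lowest in tdT-GFP+ 3, with 191 CPM. The 4 podocyte markers summed to 368, 371 and 439 CPM in tdT+GFP+ and 501, 457 and 581 CPM in tdT-GFP+ libraries. No marker of these lists was at 0 in all libraries, and the part of these cells in the difference was not tested.

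**Figure D3:**
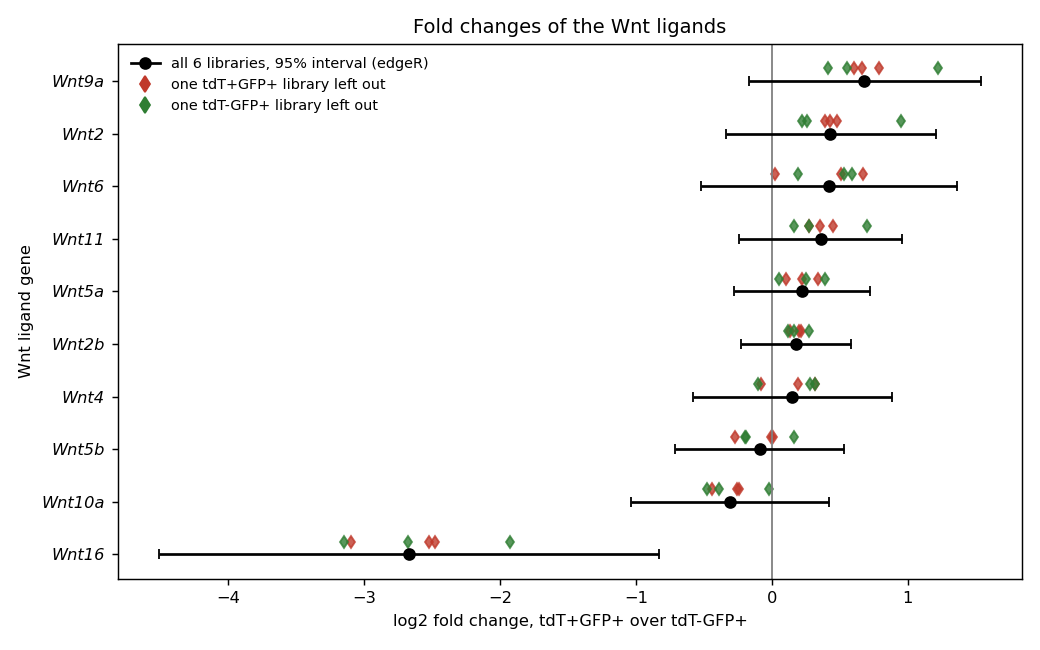
Log2 fold change of each ligand, tdT+GFP+ over tdT-GFP+, with its 95% interval from all 6 libraries in black and the values with 1 library left out as diamonds, red for a tdT+GFP+ and green for a tdT-GFP+ library. The unadjusted interval excludes 0 for Wnt16 alone, and the green diamonds at 0.95, 1.22 and 0.70 for Wnt2, Wnt9a and Wnt11 are those without tdT-GFP+ replicate 1.

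The ligands thus followed at least 3 patterns over the libraries, none of which separated the groups. Likeness was measured as the root mean square difference of log2 CPM, centred on each gene's mean over the 6 libraries, and is given as a description. Of the 45 pairs of ligands, Wnt2 with Wnt11 (0.148), Wnt4 with Wnt5a (0.157) and Wnt4 with Wnt6 (0.173) were the most alike. Wnt4 varied 2.33-fold between libraries, yet its ratio to Wnt5a per kilobase was 3.74 ± 0.418 in tdT+GFP+ and 3.91 ± 0.577 in tdT-GFP+ cells. The summed CPM of Wnt2, Wnt9a and Wnt11 was 74.0, 79.0 and 65.4 in tdT+GFP+ libraries and 80.5, 42.0 and 37.7 in tdT-GFP+ libraries. Counts of all 10 ligands together made up 0.0463% ± 0.00853 of a tdT+GFP+ library and 0.0413% ± 0.0105 of a tdT-GFP+ library, a difference smaller than the spread in either group.

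Genes outside the family that were most like Wnt4 among 13136 compared were Cav3, a muscle caveolin (root mean square difference 0.05), Ak5, an adenylate kinase (0.0620), and the Frizzled receptor Fzd2 (0.0797). Fzd2 had 124, 95.7 and 185 CPM in tdT+GFP+ and 137, 130 and 72.3 CPM in tdT-GFP+ libraries, with the same highest and lowest libraries as Wnt4. The canonical target Axin2 had 52.8, 29.7 and 64.2 CPM in tdT+GFP+ and 43.0, 64.2 and 27.3 CPM in tdT-GFP+ libraries, where tdT+GFP+ 2 and tdT-GFP+ 3 were again the lowest. Macrophage markers summed to 930, 1390 and 380 CPM in tdT+GFP+ and 492, 274 and 838 CPM in tdT-GFP+ libraries, lowest in the 2 libraries where Wnt4 was highest. Other cell types had single markers that were highest in the same 2 libraries, tdT+GFP+ 3 and tdT-GFP+ 2. These were the stromal Pdgfra (1280 and 1240 CPM) and the collecting duct Aqp2 (24.2 and 22.8 CPM). The stromal sum did not share that order, since it was highest in tdT-GFP+ 1, at 48900 CPM. The part of any of these cell types in the order was not tested. Most like Wnt16 were Glp1r, the receptor of glucagon-like peptide 1 (0.272), Crb2, an apical polarity protein (0.291), and Sele, the endothelial adhesion molecule E-selectin (0.305). Sele had 1.43, 3.35 and 2.63 CPM in tdT+GFP+ and 11.6, 3.59 and 21.1 CPM in tdT-GFP+ libraries.

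**Figure D4:**
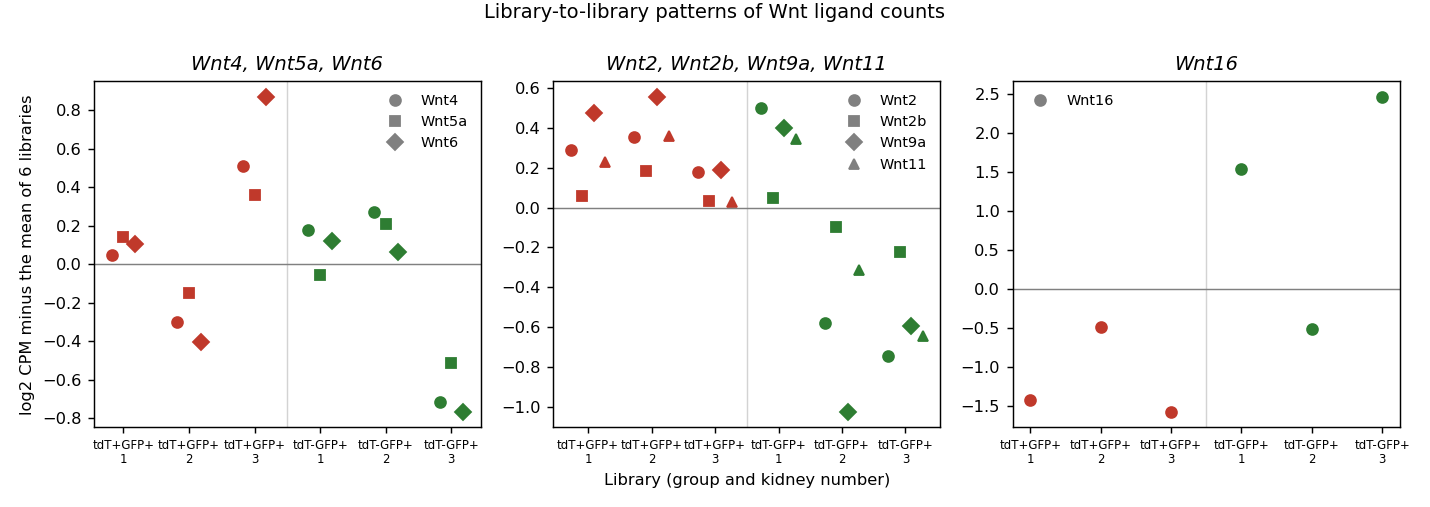
Log2 CPM of 8 ligands minus each gene's mean over the 6 libraries, in 3 panels with separate axes, tdT+GFP+ in red left of tdT-GFP+ in green. Wnt4, Wnt5a and Wnt6 are highest in tdT+GFP+ 3 and lowest in tdT-GFP+ 3, Wnt2, Wnt2b, Wnt9a and Wnt11 are lowest in tdT-GFP+ 2 and 3, and Wnt16 is highest in tdT-GFP+ 1 and 3.

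Promoter sequence is shown for Wnt11, Wnt9a and Wnt2, which were all lowest in tdT-GFP+ 2 and 3, and for Wnt16, which was not. RefSeq windows on GRCm38.p6 matched 8 of the 10 ligands, in 11 windows, and not Wnt5a or Wnt10a. The 250 bases before each start were searched for the TCF/LEF core ATCAAAG and for CCAAT on both strands, and for TATAAA on the gene strand. These motifs were chosen after the sequences had been read, and they do not overlap in the windows printed. The bases printed are those before both the RefSeq and the GENCODE start, 5′ to 3′ on the gene strand, with motif matches in capitals. The windows are chr7:98834862-98835111 (plus strand), chr11:59306680-59306927 (plus strand), chr6:18030586-18030695 (minus strand) and chr6:22287977-22288226 (plus strand).
Wnt11: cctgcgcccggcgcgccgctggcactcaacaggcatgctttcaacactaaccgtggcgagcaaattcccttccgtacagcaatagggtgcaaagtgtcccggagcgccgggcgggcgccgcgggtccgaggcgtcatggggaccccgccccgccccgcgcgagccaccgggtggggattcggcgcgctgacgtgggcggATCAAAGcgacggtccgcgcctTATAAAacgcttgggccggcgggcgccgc
Wnt9a: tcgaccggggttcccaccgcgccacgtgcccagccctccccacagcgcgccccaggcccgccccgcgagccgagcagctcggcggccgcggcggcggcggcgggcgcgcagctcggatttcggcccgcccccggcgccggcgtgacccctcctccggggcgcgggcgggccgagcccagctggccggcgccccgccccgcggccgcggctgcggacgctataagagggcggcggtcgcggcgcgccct
Wnt2: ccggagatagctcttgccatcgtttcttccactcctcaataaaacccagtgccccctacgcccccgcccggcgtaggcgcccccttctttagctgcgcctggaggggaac
Wnt16: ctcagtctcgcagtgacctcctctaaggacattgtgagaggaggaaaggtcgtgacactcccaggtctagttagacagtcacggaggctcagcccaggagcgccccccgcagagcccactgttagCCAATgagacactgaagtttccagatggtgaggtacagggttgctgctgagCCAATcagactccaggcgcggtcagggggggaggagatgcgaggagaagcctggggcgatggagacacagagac

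The Wnt11 window held a TCF/LEF core that begins 51 bases before the start and a TATAAA that begins 29 bases before it. Among all 32851 windows in the RefSeq table, 3.21% held the TCF/LEF core, 7.59% TATAAA and 33.8% CCAAT. The Wnt16 window held CCAAT on the gene strand at 125 and 74 bases before the start. Of the other windows, the third of Wnt5b held the TCF/LEF core, and those of Wnt2 and Wnt2b held a CCAAT. All of these matches lay within bases that GENCODE counts as part of the gene, for Wnt5b 94961 bases after its start. None of the 3 motifs stood in the Wnt9a window. Guanine and cytosine made up 70.8% of the 250 bases for Wnt11, 84.4% for Wnt9a, 63.6% for Wnt2 and 59.2% for Wnt16, against a median of 52.4% over all windows. A match describes letters in a window and is not evidence of binding.

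Of the other 9 Wnt ligand rows, 3 passed the filter on low counts. Wnt7b, a collecting duct ligand, had 6.41, 4.67 and 19.1 CPM in tdT+GFP+ and 8.49, 15.7 and 12.3 CPM in tdT-GFP+ libraries, with tdT+GFP+ 3 the highest as for Wnt4. Its log2 fold change was -0.28 (SE 0.54, adjusted p = 0.848). The log2 fold change of Wnt9b was -0.29 (SE 0.53) and that of Wnt7a 0.49 (SE 0.58). The 6 rows that did not pass, Wnt1, Wnt3, Wnt3a, Wnt8a, Wnt8b and Wnt10b, reached at most 16 counts in any library, for Wnt10b.

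No gene of the machinery that secretes the ligands passed the edgeR test, and neither did any other of the 15462 tested genes. Wls, which carries Wnt proteins to the cell surface, had 219, 225 and 222 CPM in tdT+GFP+ and 241, 205 and 209 CPM in tdT-GFP+ libraries. Its log2 fold change was 0.02 with a 95% interval of -0.18 to 0.23. Porcn, the acyltransferase that attaches the lipid, had 5.72 ± 0.468 CPM in tdT+GFP+ and 6.64 ± 0.855 CPM in tdT-GFP+ cells (log2 fold change -0.21, 95% interval from -0.59 to 0.17). Wls and Porcn were named for their roles after their values were seen. Of 11 genes for ligand lipidation, secretion and removal, 6 had positive and 5 negative log2 fold changes (median 0.02). In edgeR 0 of the 11 passed, against 0% of all genes, and in DESeq2 0, against 1.69%. The heparan sulfate proteoglycan gene Gpc4 had the smallest p of these, at 162 ± 9.30 CPM in tdT+GFP+ and 133 ± 15 CPM in tdT-GFP+ cells (log2 fold change 0.28, SE 0.10, adjusted p = 0.442).

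On the receiving side, 0 genes passed in edgeR, against 0% of all tested genes. Of 18 receptor and co-receptor genes, 9 had positive and 9 negative values (median 0.02), and DESeq2 called 1 lower, Fzd6 (adjusted p = 0.0275, and 0.00075 with the block), against 1.6% of all genes called lower and 1.59% with the block. Fzd6, a Frizzled receptor, had 6.16, 7.54 and 11.8 CPM in tdT+GFP+ and 13.6, 18.5 and 20.7 CPM in tdT-GFP+ libraries (log2 fold change -1.06, SE 0.27, adjusted p = 0.405, edgeR). The groups did not overlap for 3 of the 18, against 15.8% of all genes in either direction. All 3 were lower in tdT+GFP+ cells, as were 8.6% of all genes. Besides Fzd6 these were the Frizzled receptors Fzd4, with 55.6 ± 8.74 CPM in tdT+GFP+ and 83.5 ± 21.1 CPM in tdT-GFP+ cells (log2 fold change -0.59, SE 0.20), and Fzd10, with 0.28 ± 0.0315 CPM in tdT+GFP+ and 0.66 ± 0.375 CPM in tdT-GFP+ cells (-1.24, SE 0.49). The adjusted p values were 0.438 for Fzd4 and 0.456 for Fzd10 in edgeR. Fzd10 had 8, 9 and 8 counts in tdT+GFP+ and 16, 29 and 10 counts in tdT-GFP+ libraries. It passed the filter on low counts through the tdT-GFP+ libraries, so its place among the 3 is not independent of its direction. Of 8 tested secreted antagonists, 3 had positive and 5 negative values (median -0.54), and DESeq2 called 0 without the block and 1 lower with it, Sostdc1 (adjusted p = 0.0511 without it and 0.00923 with it), against 1.59% of all genes called lower with the block. Sostdc1, an inhibitor of Wnt and bone morphogenetic protein signals, had 4.67, 4.58 and 8.37 CPM in tdT+GFP+ and 8.56, 14.8 and 15.9 CPM in tdT-GFP+ libraries (log2 fold change -1.16, SE 0.33, adjusted p = 0.414). The groups did not overlap for 2 of the 8, against 15.8% of all genes, and the other, Frzb, a secreted Frizzled-related protein, went the opposite way. It had 966, 807 and 873 CPM in tdT+GFP+ and 742, 621 and 365 CPM in tdT-GFP+ libraries (log2 fold change 0.61, SE 0.25, adjusted p = 0.464). Of 15 canonical Wnt targets, 9 had positive and 6 negative values (median 0.10). In edgeR 0 of the 15 passed, against 0% of all genes, and in DESeq2 0, against 1.69%. For 1 of the 15 targets the groups did not overlap, against 15.8% of all genes. This was Znrf3, an E3 ligase that removes Frizzled receptors. It had 17.6, 16.3 and 15.4 CPM in tdT+GFP+ and 13.5, 14.4 and 13.3 CPM in tdT-GFP+ libraries (log2 fold change 0.26, SE 0.09, adjusted p = 0.442). Rnf43, the related ligase, had 0.61, 0.58 and 1.22 CPM in tdT+GFP+ and 1.09, 2.28 and 1.93 CPM in tdT-GFP+ libraries, the opposite direction (log2 fold change -1.14, SE 0.43, adjusted p = 0.447). Ccn4, a matricellular protein gene induced by beta-catenin, had 140, 173 and 129 CPM in tdT+GFP+ and 155, 80.8 and 96.0 CPM in tdT-GFP+ libraries (log2 fold change 0.41, SE 0.25, adjusted p = 0.543).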

How the data were processed

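RNA was measured in 6 libraries of sorted kidney cells, 3 per group. The authors deposited estimated counts (RSEM, per the file headers), all of them whole, so rounding had no effect. Tools in the submitters' processing notes were STAR 2.6.1 and RSEM 1.2.28 with bcl2fastq 2.20, besides DESeq2 1.26.0. The kit keeps strand, per the labels' protocols. The strand setting of the counting and its annotation release are not given in the sources used here, and antisense genes may share reads. The 92 spike-in rows, all at 0, were left out. Coordinates and exon lengths come from GENCODE M21 (GRCm38), matched by identifier for 31748 of 31815 rows.

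The test was edgeR 4.0.16 in R 4.3.3 (quasi-likelihood, robust, group as the only term) after filterByExpr and TMM scaling, with Benjamini-Hochberg adjustment over all 15462 tested genes and a threshold of 0.05. SE is the coefficient over the square root of F. CPM use TMM-scaled library sizes, differences within a kidney use log2 CPM (prior count 2), and CPM per kilobase divide by the union of a gene's exons. The procedure was tested on simulated data, with a pass mark set only for a low, fixed spread between libraries. Recovery at the spread of these data is not given here, so that test does not show the power for the ligands. Alternatives were DESeq2 1.42.0 on the same filtered genes, limma-voom 3.58.1, other scalings and filters, the kidney as a block, libraries or kidneys left out, and transcript length. The labels give same-numbered libraries the same kidney, so the numbers pair them, although their deviations from the group means correlated by 0.039, -0.578 and -0.304 across genes for kidneys 1, 2 and 3, and by 0.448 and 0.444 between kidneys 2 and 3. Differences within a kidney and fits with the block would change if these 2 numbers were exchanged in a sort, which was not tested.

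The ligands and gene lists were chosen with earlier results of these data known. Genes named are all ligands, up to 4 per pathway list by smallest p, markers, and the 3 genes most like the most abundant ligand and like the ligand with the smallest p, at a mean of at least 1 CPM and leaving out predicted models. Not all of them are described. The labels call the libraries biological replicates. With group as the only term, p-values measure a difference against the spread between libraries of the same group and leave out the pairing by kidney. Only the fits with the kidney as a block take the pairing into account.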

Additional observations from a re-analysis of the deposited data

How the results depend on the processing

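The number of genes called was 0 in edgeR under the other scalings and filters tried, with the kidney as a block (0, with 1285 genes at an unadjusted p under 0.05, against 1650 without it) and with each library or kidney left out, and 0 in limma-voom. DESeq2 called 262 genes, and 276 with the kidney as a block. DESeq2 with a library left out, added after seeing the data, called 47, 189 and 657 genes without tdT+GFP+ replicate 1, 2 and 3, and 1319, 354 and 75 without tdT-GFP+ replicate 1, 2 and 3. With 1 library left out, edgeR's log2 fold changes ran from 0.22 to 0.95 for Wnt2, 0.12 to 0.27 for Wnt2b, -0.10 to 0.32 for Wnt4, 0.05 to 0.39 for Wnt5a, -0.27 to 0.16 for Wnt5b, 0.02 to 0.67 for Wnt6, 0.41 to 1.22 for Wnt9a, -0.48 to -0.02 for Wnt10a, 0.16 to 0.70 for Wnt11 and -3.15 to -1.93 for Wnt16. The sign turned for Wnt4 (-0.08 without tdT+GFP+ replicate 3, -0.10 without tdT-GFP+ replicate 3, -0.34 without both, and -0.09 and -0.10 in DESeq2), for Wnt5a (-0.08) and Wnt6 (-0.22) without both libraries of kidney 3, and for Wnt5b (0.01 without tdT+GFP+ replicate 2, 0.16 without tdT-GFP+ replicate 2, 0.26 without both, and 0.01 and 0.17 in DESeq2). The cause was not tested. DESeq2 without tdT-GFP+ replicate 1 called Wnt2 (0.94), Wnt9a (1.21) and Wnt11 (0.69). It called Wnt16 with all libraries (-2.68) and without tdT+GFP+ or tdT-GFP+ replicate 2 (-3.10 and -3.14). With the block Wnt16 was not called (-2.40 in DESeq2 and -2.37 in edgeR), and no other ligand changed its call. Wnt16, at 8 to 134 counts per library, could not be tested with a minimum of 1 CPM in 3 libraries. With the longest transcript in place of the union of exons Wnt2b averaged 1.13 in place of 0.889 CPM per kilobase, and the order of the 10 means was the same. The order within single libraries is given for the union of exons alone and can differ with the other length. That length is 7010 in place of 7823 bases for Wnt5a and 3318 in place of 4201 bases for Wnt2b.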
